A study of Mus musculus with 12 samples.

Results

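The respiratory chain of the mitochondrial inner membrane was followed through the stromal vascular fraction (SVF) of mouse fat by the mRNAs of its subunits. The members were 98 of the 31053 genes in the count tables, matched by symbol and chosen with earlier results of these data known. They were 85 nuclear genes, of which 38 are Nduf genes, counted here under complex I, 4 Sdh genes of complex II, 8 Uqcr genes of complex III, 18 Cox genes of complex IV and 17 Atp5 genes of complex V, and 13 mt- genes of the mitochondrial genome, 7 for complex I, 1 for complex III, 3 for complex IV and 2 for complex V. Ndufa4 and its paralogue Ndufa4l2 were counted with the Nduf genes by symbol, although their proteins are known from complex IV. Nuclear and mt- members were read apart in each cell class, depot and group.

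The chain passes electrons from NADH (complex I) and succinate (complex II) through complex III to oxygen at complex IV, and the proton gradient that results drives ATP synthesis at complex V. Apart from complex II, each complex is built from subunits of both genomes, so that nuclear and mitochondrial transcription have to supply the same assembly. Rosiglitazone is an agonist of PPARγ, a nuclear receptor that drives adipocyte differentiation and lipid storage genes in fat.

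The data were droplet single-cell libraries of the SVF of epididymal (eWAT) and inguinal (iWAT) white adipose tissue of male mice 12 weeks old. The group called WT-Veh held C57BL/6J mice given the methylcellulose vehicle by gavage, ob/ob-Veh held Lepob/Lepob mice given the same vehicle, and ob/ob-Rosi held Lepob/Lepob mice given 30 mg/kg rosiglitazone, each in the morning and in the evening for 3 days. Each group had 2 libraries in each depot, every one from a different mouse within the depot, 12 libraries in all. No lean mice given rosiglitazone were analysed here, and the SVF had been freed of floating adipocytes, so that adipocytes themselves were not measured.

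Of 139755 barcodes, 126095 cells were kept, 6472 to 17500 per library, with a median of 1132 to 4961 unique molecular identifiers (UMIs) per cell and 19593940 to 66315901 UMIs per library in the kept cells. The kept cells were clustered in each depot without the members and named from marker genes. The largest classes were adipocyte precursor-like (APC-like) cells, divided into progenitor-like and preadipocyte-like cells, and macrophage-like cells, divided into perivascular macrophage-like (PVM-like) and lipid-associated macrophage-like (LAM-like) cells. Not every cell fell in such a part. In eWAT, 2915 of 5427 APC-like cells of WT-Veh, 141 of 7207 of ob/ob-Veh and 2042 of 5052 of ob/ob-Rosi lay in clusters left unnamed, led by markers of macrophages, LAM or mural cells, and were in neither part. Endothelial-like (EC-like), T/NK-like and B-like cells were found in both depots. Mesothelial-like cells, whose markers are known from the surface of visceral fat, were named in eWAT but not in iWAT.

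Some libraries stood apart. The ob mutation leaves the Lep transcript in place, so that UMIs cannot check the genotype, but Lep mRNA is known to be high in the fat of ob/ob mice. Lep UMIs per 100 Adipoq UMIs, from adipocyte RNA carried over, were 28.0 and 42.5 for the label WT-Veh in eWAT, 3.95 and 16.2 for ob/ob-Veh and 240.0 and 390 for ob/ob-Rosi. The iWAT values were 20.1 and 31.6 for WT-Veh, 36.4 and 15.1 for ob/ob-Veh and 164 and 141 for ob/ob-Rosi. LAM-like cells, known from obese fat, were 4918 of 8478 and 1533 of 2866 macrophage-like cells in eWAT labelled WT-Veh, 83 of 2083 and 77 of 2046 in ob/ob-Veh, and 2798 of 4931 and 2990 of 4655 in ob/ob-Rosi. They include 1 cluster led by Il1b and Tnip3, with 1764 and 262 cells of WT-Veh, 19 and 32 of ob/ob-Veh and 996 and 182 of ob/ob-Rosi. Another, led by cell cycle genes, held 713 and 122, 52 and 11, and 319 and 291. Each had 0 LAM markers among its 10 top genes. In iWAT LAM-like cells were 24.0% of macrophage-like cells in WT-Veh, 0.523% in ob/ob-Veh and 17.4% in ob/ob-Rosi. Neither measure was used to check a label. Adipocytes and the rest of the floating layer were taken off before the libraries were made, and the Lep UMIs come from what little was carried over. The part of this loss in either measure was not tested. The study's other measures of macrophages, by flow cytometry and in the floating layer, were not analysed here. Group names below are those of the labels. In the iWAT library labelled WT-Veh 1, 57.3% of cells fell in unnamed clusters, against 1.82 to 10.4% in the other 11 libraries. Cells of ob/ob-Veh also clustered apart. In eWAT, 96.4% of their APC-like cells lay in 3 clusters that held 7.26% of the APC-like cells of WT-Veh and 7.74% of those of ob/ob-Rosi, and 88.1% of their macrophage-like cells lay in 1 cluster that held 0.115% and 0.428% of those groups. In iWAT, 1 APC-like cluster held 76.1% of the ob/ob-Veh cells against 1.42% and 1.17%, and 1 macrophage-like cluster held 97.4% against 0.296% and 0.833%. Comparisons of ob/ob-Veh in APC-like and macrophage-like cells therefore set largely different clusters of a class against each other, and the part of cell makeup in the results was not tested. No cluster of EC-like or T/NK-like cells was mostly of ob/ob-Veh at the resolution used, but in iWAT the groups still differed in their clusters. There 1 EC-like cluster held 195 and 913 of the 1373 EC-like cells of WT-Veh, by library. It held 0 and 7 of the 700 of ob/ob-Veh and 0 and 7 of the 4271 of ob/ob-Rosi. Of the T/NK-like cells, 1 cluster held 2872 and 65 of 4308 in WT-Veh. It held 63 and 157 of 381 in ob/ob-Veh and 162 and 69 of 1538 in ob/ob-Rosi. The part of this in the results was not tested. At Leiden resolution 2 in eWAT, 1 EC-like cluster held 44.5% of the EC-like cells of ob/ob-Veh, against 0.628% of those of WT-Veh and 0.270% of those of ob/ob-Rosi. There 749 cells of ob/ob-Veh were T/NK-like, against 1071 at the resolution used. An unnamed cluster that scored highest for T/NK markers, with Gata3, Il2ra and Il1rl1 among its top genes, appeared there. It held 5 and 11 cells of WT-Veh, 190 and 139 of ob/ob-Veh and 5 and 31 of ob/ob-Rosi.

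The nuclear members lie on 19 chromosomes, with at most 9 on any chromosome, and the 13 mt- members lie together on the mitochondrial chromosome, where mt-Co1 spans chrM:5328-6872 (GRCm38, + strand). Promoters of 67 nuclear members, 72 in all, were in the RefSeq table of 300-base promoters (GRCm38.p6), in which 5 motifs were searched on both strands. The NRF1 core GCATGCGC, bound by a regulator of nuclear genes of the chain, was in 13.9% of the member promoters and 2.71% of all 32851 promoters. The ETS core CCGGAAG was in 22.2% against 8.86%, the YY1 core AAGATGGC in 12.5% against 2.75%, the ERR core AAGGTCA in 11.1% against 4.72% and the hypoxia response core ACGTG in 23.6% against 19.6%. These matches describe the letters of the promoters and were not tested for any function. The windows below hold the NRF1 core, in capitals, in 5 members called in macrophage-like cells below and in Cox6a1, which passed no test there. They come from chr4:140961209-140961232 (+ strand) for Sdhb, chr2:36049339-36049354 (− strand) for Ndufa8, chr17:56717696-56717719 (+ strand) for Ndufa11, chr15:102671072-102671095 (− strand) for Atp5g2, chr9:44920967-44920990 (− strand) for Atp5l and chr5:115349103-115349126 (− strand) for Cox6a1, all written 5′ to 3′.
Sdhb: cccagtggGCATGCGCcctacggg
Ndufa8: ctggagacGCATGCGC
Ndufa11: cactgcgcGCATGCGCgcacgcct
Atp5g2: ccggccgcGCATGCGCagagcctt
Atp5l: ccaataacGCATGCGCatttcccc
Cox6a1: aacggggcGCATGCGCgctctcgc

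Atp5g1 and Ndufv1 of the named members held no such NRF1 window in the table but held the hypoxia response core, at chr11:96075660-96075684 (− strand) and chr19:4012909-4012933 (− strand), as did Sdha, at chr13:74350351-74350375 (− strand), which passed no test in macrophage-like cells. Ndufa7, Atp5d, Cox5a, Atp5g3 and Cox8b of the named members also held this core and no such NRF1 window, and are not shown. Atp5g1, Ndufv1 and Sdha are shown, with the core in capitals, because Atp5g1 was called in the most comparisons after Ndufa4l2 and Sdha in none of those in macrophage-like cells.
Atp5g1: gactccgaacACGTGggtgggggag
Ndufv1: agagggcgacACGTGagcctggttt
Sdha: cctacctcagACGTGttgccaccgc

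In every class, nuclear members took a smaller share of UMIs in the libraries labelled ob/ob-Veh than in the other groups, while mt- members did not. In eWAT macrophage-like cells, nuclear members held 1.98 and 1.75% of UMIs in WT-Veh, 0.962 and 1.25% in ob/ob-Veh and 1.76 and 1.90% in ob/ob-Rosi. The mt- members held 3.70 and 4.15% in WT-Veh, 6.51 and 6.36% in ob/ob-Veh and 5.84 and 4.05% in ob/ob-Rosi. Both ob/ob-Veh libraries were thus lowest for the nuclear and highest for the mt- members, and neither overlapped another group. In iWAT macrophage-like cells the nuclear share was 1.25 and 1.57%, 0.637 and 0.760%, and 1.59 and 1.83%. The mt- share there was 8.28 and 3.83%, 9.92 and 8.61%, and 4.96 and 2.47%, again highest in ob/ob-Veh, though the WT-Veh libraries were far apart.

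The same order was seen in APC-like cells at a smaller distance. In eWAT the nuclear share was 1.39 and 1.34% in WT-Veh, 1.13 and 1.14% in ob/ob-Veh and 1.30 and 1.58% in ob/ob-Rosi. The mt- share was 4.11 and 3.64%, 3.99 and 5.40%, and 5.08 and 3.34%, with all 3 groups overlapping. In iWAT the nuclear share was 1.04 and 1.35%, 0.797 and 0.798%, and 1.32 and 1.53%, without overlap of ob/ob-Veh and the others. The mt- share was 6.02 and 2.93%, 4.12 and 5.91%, and 4.73 and 2.13%, so that libraries of 1 group differed by more than the groups did.

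**Figure D1:**
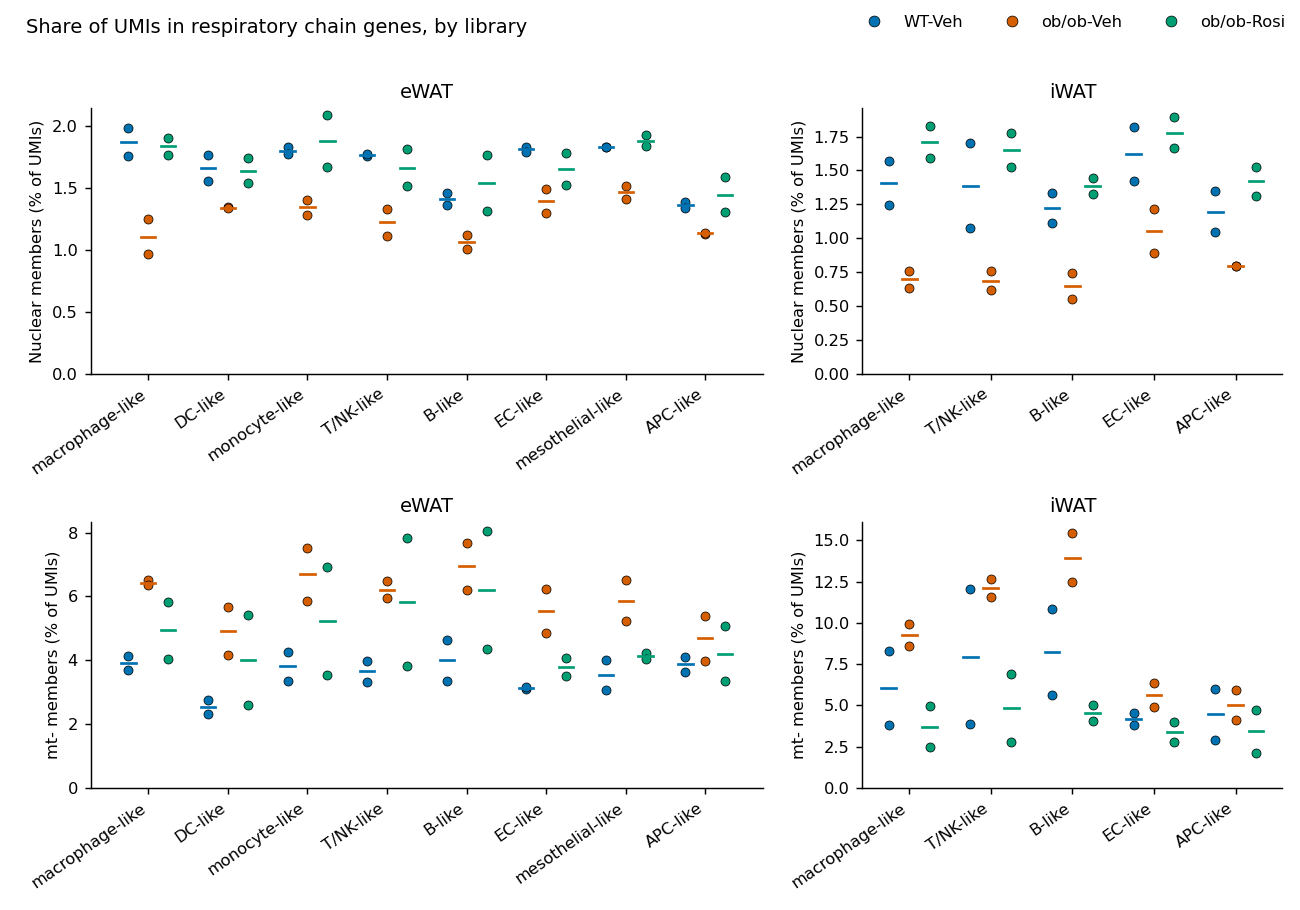
Share of UMIs (percent) in nuclear members and in mt- members, for the broad cell classes of eWAT (left) and iWAT (right), with 1 point per library coloured by its labelled group and a bar at the mean of each group. The ob/ob-Veh points are the lowest for nuclear members in every class drawn, whereas the mt- points overlap between groups in several.

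Over the 20 pairs of class and depot with at least 20 cells in every library, some of them nested, both ob/ob-Veh libraries lay below both WT-Veh libraries in nuclear share in 20 and below both ob/ob-Rosi libraries in 20. In the 13 broad pairs that share no cells the counts were 13 and 13. The mt- share of ob/ob-Veh was above WT-Veh in 15 of the 20 pairs and above ob/ob-Rosi in 11. The mt- UMIs per nuclear UMI were above WT-Veh in 18 and above ob/ob-Rosi in 15. With 2 libraries against 2, an exact permutation test can go no lower than p = 0.333, so these counts carry no p, and the pairs come from the same libraries and are not independent. Ribosomal protein genes, which are also short, highly expressed nuclear genes, moved in the same way: their share was below WT-Veh in 18 of the 20 pairs and below ob/ob-Rosi in 14. In eWAT macrophage-like cells it was 15.2 and 14.2% in WT-Veh, 7.90 and 11.2% in ob/ob-Veh and 13.4 and 14.2% in ob/ob-Rosi. In eWAT APC-like cells, by contrast, it was 12.1 and 12.9%, 12.7 and 12.3%, and 12.0 and 13.5%, with overlap of the groups. Genes induced by tissue dissociation, such as Fos, Jun and heat shock genes, took 0.829 and 1.16%, 3.21 and 2.56%, and 0.860 and 0.777% of UMIs in eWAT macrophage-like cells, highest in ob/ob-Veh. In iWAT macrophage-like cells they took 1.49 and 2.09%, 2.25 and 2.38%, and 1.88 and 1.70%. The part of RNA quality or cell handling in the member results was not tested.

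The mt- UMIs per nuclear UMI in eWAT macrophage-like cells were 1.87 and 2.37 in WT-Veh, 6.76 and 5.09 in ob/ob-Veh and 3.31 and 2.13 in ob/ob-Rosi. In iWAT macrophage-like cells they were 6.64 and 2.44, 15.6 and 11.3, and 3.12 and 1.35. In eWAT APC-like cells they were 2.97 and 2.72, 3.54 and 4.75, and 3.89 and 2.11, and in iWAT APC-like cells 5.77 and 2.17, 5.17 and 7.40, and 3.60 and 1.39. Thus the ratio was highest in ob/ob-Veh without overlap in macrophage-like cells of both depots, but overlapped ob/ob-Rosi in eWAT APC-like cells and WT-Veh in iWAT APC-like cells.

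Other classes followed the nuclear pattern. In eWAT EC-like cells the nuclear share was 1.83 and 1.79% in WT-Veh, 1.29 and 1.49% in ob/ob-Veh and 1.52 and 1.78% in ob/ob-Rosi. The iWAT EC-like cells had 1.43 and 1.82% in WT-Veh, 0.889 and 1.22% in ob/ob-Veh and 1.67 and 1.89% in ob/ob-Rosi. For eWAT T/NK-like cells it was 1.76 and 1.77%, 1.11 and 1.33%, and 1.51 and 1.81% by group, and for iWAT T/NK-like cells 1.07 and 1.70%, 0.620 and 0.756%, and 1.53 and 1.78%. In mesothelial-like cells of eWAT it was 1.83 and 1.83%, 1.41 and 1.51%, and 1.92 and 1.83%. LAM-like cells of eWAT, scarce in ob/ob-Veh, had 2.10 and 1.86%, 1.58 and 1.60%, and 1.85 and 1.94%. Hence in these classes too the ob/ob-Veh libraries were lowest.

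Each member was then tested in sums of UMIs per library and class with edgeR's quasi-likelihood test over all genes that passed the filter on low counts, and called where its p, adjusted by Benjamini-Hochberg over all of them, was no higher than 0.05 with a difference of 1.1-fold or more. The ob/ob effect is ob/ob-Veh minus WT-Veh and the Rosi effect is ob/ob-Rosi minus ob/ob-Veh. They share the ob/ob-Veh libraries, so a low ob/ob-Veh library moves both in opposite directions. In eWAT macrophage-like cells, 62 of the 81 nuclear members tested were lower in ob/ob-Veh than in WT-Veh, when 16.3% of all genes tested were called lower, and none was higher. In ob/ob-Rosi, 61 of 81 were higher than in ob/ob-Veh, against 17.6% of all genes. The median log2 change of the nuclear members was −1.05 for the ob/ob effect and 1.08 for the Rosi effect, and that of all genes in the ob/ob effect was 0.01. Of the 13 mt- members, 1 was higher in ob/ob-Veh, against 14.2% of all genes called higher, and none was called in the Rosi effect (1 at an unadjusted p under 0.05, and 1 called by DESeq2). Their medians were 0.44 and −0.27.

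In iWAT macrophage-like cells, 56 of 81 nuclear members were lower in ob/ob-Veh, against 7.92% of all genes, and 69 were higher in ob/ob-Rosi, against 11.6%. Their medians were −1.28 and 1.58. Of the mt- members, none was called in the ob/ob effect by edgeR, against 6.34% of all genes called higher (none at an unadjusted p under 0.05, and 1 by DESeq2), and 1 was lower in ob/ob-Rosi, against 9.28% of all genes called lower (4 at an unadjusted p under 0.05, 4 called by DESeq2 and 6 with no filter on low counts). With the replicate number as a block 2 mt- members were called in the ob/ob effect and 9 in the Rosi effect. Their medians were 0.35 and −0.98. Of the nuclear members tested in both depots, 54 of 81 were called lower in ob/ob-Veh and higher in ob/ob-Rosi in each depot, against 5.97% of all genes, and 11 were called in none of these 4 comparisons, which share the ob/ob-Veh libraries of a depot. The calls depended on single libraries. In eWAT the count called in the ob/ob effect was 10 without WT-Veh 1 and 10 without ob/ob-Veh 1, and 48 without WT-Veh 2 or ob/ob-Veh 2, and that in the Rosi effect was 16 without ob/ob-Veh 1. In iWAT, leaving out either ob/ob-Veh library left 0 called in either effect, leaving out WT-Veh 2 left 32 in the ob/ob effect and leaving out ob/ob-Rosi 2 left 19 in the Rosi effect. Without the iWAT library labelled WT-Veh 1 they were 63 and 72.

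**Figure D2:**
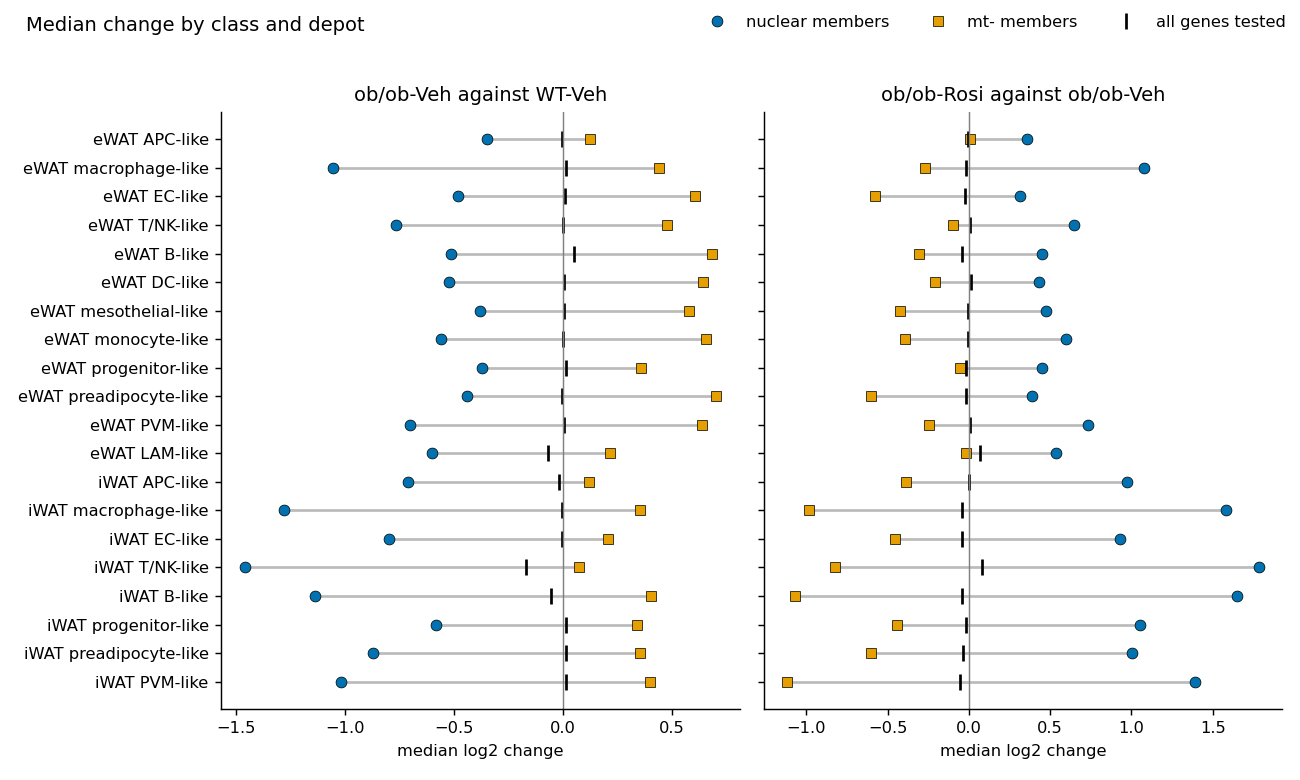
Median log2 change of the nuclear members, of the mt- members and of all genes tested, for ob/ob-Veh against WT-Veh (left) and ob/ob-Rosi against ob/ob-Veh (right) in the 20 pairs of class and depot. The nuclear medians are below 0 for every ob/ob effect and above 0 for every Rosi effect drawn, while the mt- medians lie above 0 in the left panel and below or near 0 in the right.

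Across the 20 pairs of class and depot, the nuclear median of the ob/ob effect was −1.46 to −0.35 and that of the Rosi effect 0.31 to 1.78. The mt- median of the ob/ob effect was 0.07 to 0.70 and that of the Rosi effect −1.12 to 0.01. The medians of all genes stayed within −0.17 to 0.05 and −0.05 to 0.08. Over 367 fits with every alternative, the nuclear median of the ob/ob effect was negative in 367, and the mt- median positive in 352. In as many fits of the Rosi effect the nuclear median was negative in none, and the mt- median positive in 31. The change ran with the length of the longest protein-coding transcript, over the genes that had one. These were 12737 of 13601 genes tested in eWAT macrophage-like cells and 12259 of 13008 in iWAT. Pearson's r with log length was 0.28 for the ob/ob effect and −0.27 for the Rosi effect in eWAT macrophage-like cells, and 0.33 and −0.39 in iWAT. Among the nuclear members themselves r was −0.058 and 0.12 in eWAT and −0.026 and −0.15 in iWAT. With the GC content of the same transcript, r among the nuclear members was −0.22 and 0.26 in eWAT and −0.35 and 0.39 in iWAT. Over all genes with such a transcript it was −0.14 and 0.14 in eWAT and −0.15 and 0.16 in iWAT. These are correlations across genes, which are not independent replicates, and most nuclear members are short; their part in the result was not tested.

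The nuclear members were then counted by complex. In eWAT macrophage-like cells, 32 of 38 complex I members, 7 of 8 of complex III, 10 of 15 of complex IV and 12 of 16 of complex V were lower in ob/ob-Veh, against 16.3% of all genes, with medians of −1.09, −1.03, −1.05 and −1.11. In ob/ob-Rosi, 33, 7, 8 and 12 were higher, against 17.6%, with medians of 1.11, 1.06, 1.08 and 1.03. Among macrophage-like cells of iWAT 28, 6, 9 and 12 were lower, against 7.92%, and 35, 8, 12 and 13 higher, against 11.6%. Of the 4 complex II members, 1 was called in each of the 4 comparisons, Sdhb, and the medians were −0.47 and 0.49 in eWAT and −0.61 and 0.54 in iWAT. Complex II has no mitochondrially encoded subunit. The difference between complex II and the others was not tested.

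**Figure D3:**
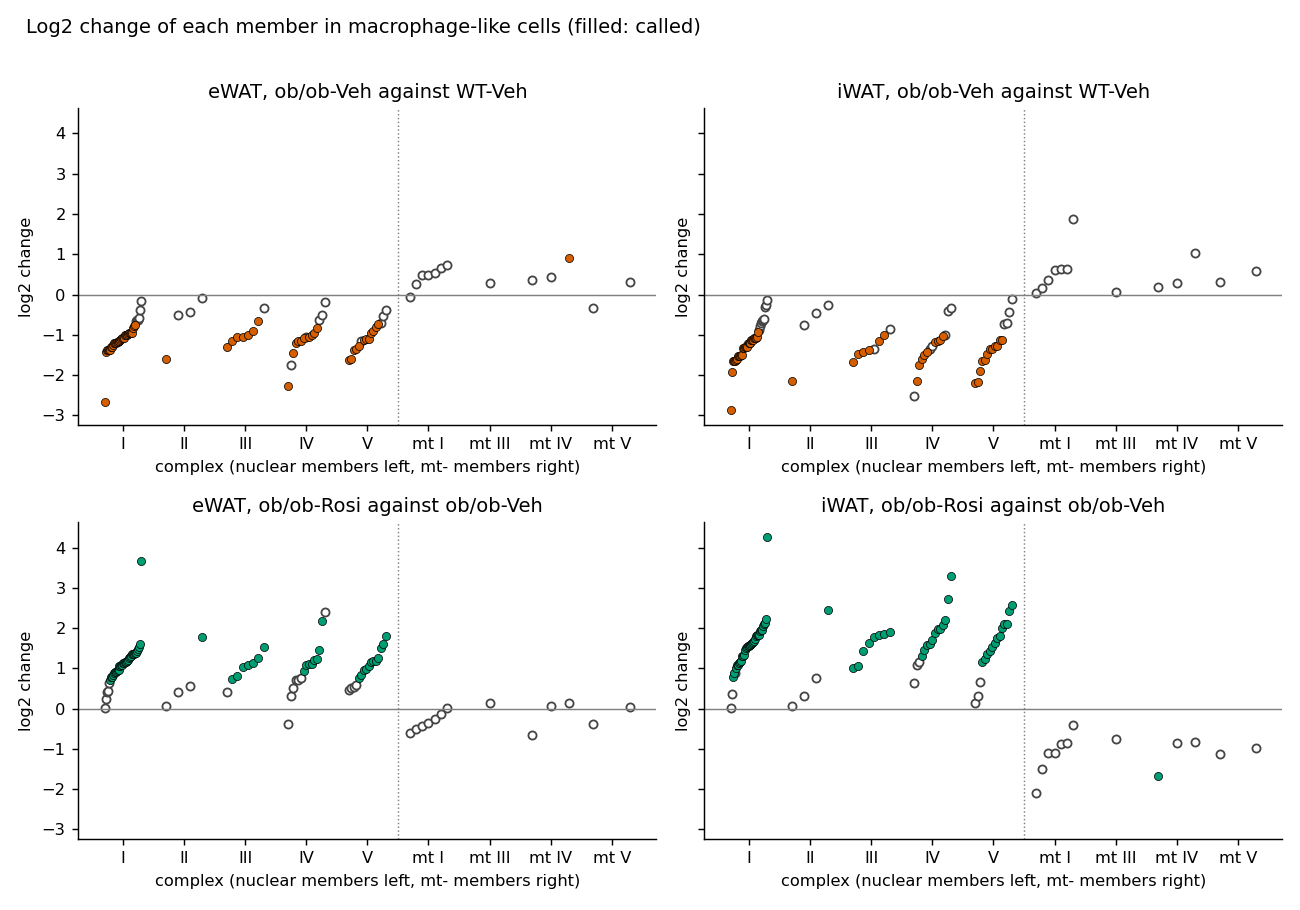
Log2 change of each nuclear and mt- member in macrophage-like cells, by complex, for the ob/ob effect and the Rosi effect in eWAT and iWAT, with called members filled. Most nuclear members of complexes I, III, IV and V lie below 0 in the ob/ob effect and above 0 in the Rosi effect, and most mt- members lie around 0 or to the other side.

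Among complex I subunits, Ndufs8 carries iron-sulfur clusters of the arm that takes up electrons. Among macrophage-like cells of eWAT its levels in CPM, the UMIs of a gene scaled to 1e6 UMIs of the class in a library, were 99.8 and 100 in WT-Veh, 35 and 52.4 in ob/ob-Veh and 74.2 and 135 in ob/ob-Rosi. Both ob/ob-Veh libraries were the lowest of the 6. Its log2 change was −1.43 ± 0.32 (SE) for the ob/ob effect (edgeR, adjusted p = 0.0108) and 1.54 ± 0.32 for the Rosi effect (adjusted p = 0.00691). In iWAT Ndufs8 was at 48.1 and 88.8, 29.2 and 22.0, and 63.0 and 105 CPM.

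Ndufa11 and Ndufa13 are accessory subunits of the membrane part of complex I, and Ndufa13 is also known for a role in cell death. Ndufa11 was at 142 and 136, 52.6 and 71.9, and 146 and 169 CPM in eWAT macrophage-like cells and at 78.2 and 116, 39.7 and 37.2, and 124 and 159 CPM in iWAT. Its Rosi effect was 1.61 ± 0.24 in eWAT (edgeR, adjusted p = 0.00169) and 2.11 in iWAT. Ndufa13 was at 334 and 290, 124 and 174, and 361 and 279 CPM in eWAT and at 214 and 206, 69.5 and 85.0, and 292 and 285 CPM in iWAT. Its ob/ob effect was −1.63 ± 0.22 in iWAT (adjusted p = 0.00753) and its Rosi effect 2.13 ± 0.23 (adjusted p = 0.00485). Neither gene had an overlap of ob/ob-Veh with another group in either depot.

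Ndufa8, with the NRF1 window shown above, was at 167 and 150, 62.3 and 80, and 131 and 176 CPM in eWAT macrophage-like cells, an ob/ob effect of −1.39 ± 0.25 (edgeR, adjusted p = 0.00499). Ndufa7 was at 148 and 205, 56.7 and 71.4, and 225 and 280 CPM in iWAT macrophage-like cells, with a Rosi effect of 2.21 ± 0.29 (adjusted p = 0.00628). Ndufv1, which binds NADH and flavin at the entry of complex I, was at 46.9 and 74.6, 13.8 and 23.4, and 52.4 and 77.9 CPM there, with an ob/ob effect of −1.93 ± 0.37 (adjusted p = 0.0184). All 3 were lowest in both ob/ob-Veh libraries.

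In complex II, Sdhb, the iron-sulfur subunit (chr4:140961203-140979193, GRCm38, + strand), was at 150 and 141 CPM in WT-Veh, 46.4 and 66.6 in ob/ob-Veh and 106 and 216 in ob/ob-Rosi in eWAT macrophage-like cells. Its ob/ob effect was −1.59 ± 0.35 (edgeR, adjusted p = 0.00941) and its Rosi effect 1.79 ± 0.35 (adjusted p = 0.00507). In iWAT it was at 49.7 and 127, 24.7 and 21.8, and 81.4 and 137 CPM, with −2.14 ± 0.49 (adjusted p = 0.0295) and 2.46 ± 0.50 (adjusted p = 0.0152). Sdha, the flavoprotein that holds the succinate site of the same complex, did not pass the test. It was at 98.3 and 118, 118 and 122, and 101 and 107 CPM in eWAT, a change of −0.08 ± 0.21 for the ob/ob effect (adjusted p = 0.802). In iWAT it was at 126 and 119, 103 and 129, and 100 and 106 CPM. For Sdhb both ob/ob-Veh libraries were below the other 4 in each depot, while WT-Veh and ob/ob-Rosi overlapped. For Sdha ob/ob-Veh overlapped WT-Veh in both depots.

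In complex III, Uqcrc1, a core subunit, was at 129 and 142, 56.6 and 71.4, and 95.3 and 208 CPM in eWAT macrophage-like cells, an ob/ob effect of −1.31 ± 0.35 (edgeR, adjusted p = 0.0197). The small subunits Uqcr10 and Uqcrq gave −1.16 and −1.05 in eWAT and −1.43 and −1.39 in iWAT. Uqcr10 was at 262 and 235, 105 and 158, and 239 and 234 CPM in eWAT. Uqcrh, a hinge protein that holds cytochrome c1, was the complex III member that was not called in eWAT: it was at 403 and 399, 327 and 414, and 448 and 366 CPM, a change of −0.35 ± 0.23 (adjusted p = 0.279). In iWAT Uqcrh was at 342 and 440, 208 and 289, and 443 and 441 CPM, and was called in the Rosi effect, 1.07 ± 0.27 (adjusted p = 0.0313).

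In complex IV, Cox5b, which binds zinc on the matrix side (chr1:36691449-36693681, GRCm38, + strand), was at 336 and 320, 103 and 181, and 271 and 374 CPM in eWAT macrophage-like cells and at 161 and 267, 41.1 and 70.5, and 259 and 364 CPM in iWAT. Its ob/ob effect was −1.44 ± 0.31 in eWAT (edgeR, adjusted p = 0.00861) and −2.15 ± 0.38 in iWAT (adjusted p = 0.015), and its Rosi effect in iWAT 2.73 ± 0.39 (adjusted p = 0.00703). Cox4i1, the common form of a subunit needed for assembly, was at 1043 and 1198, 603 and 756, and 1128 and 1310 CPM in eWAT, with −0.95 (adjusted p = 0.0182) and 1.11, and at 689 and 1122, 321 and 368, and 991 and 1311 CPM in iWAT, with −1.59 and 1.97. Cox8a was at 551 and 572, 231 and 365, and 576 and 576 CPM in eWAT. Cox6a1 was not called: it was at 253 and 192, 176 and 193, and 194 and 244 CPM in eWAT, −0.51 (adjusted p = 0.151), although its promoter holds the NRF1 core too.

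Cox7c illustrates the spread between libraries of a group. In macrophage-like cells of eWAT it was at 898 and 448 CPM in WT-Veh, 321 and 373 in ob/ob-Veh and 557 and 388 in ob/ob-Rosi. It was lower in ob/ob-Veh than in WT-Veh, −1.20 ± 0.35 (edgeR, adjusted p = 0.0282), but the Rosi effect of 0.71 ± 0.35 was not called (adjusted p = 0.14). In iWAT, where the values were 432 and 389, 191 and 268, and 570 and 493, both effects were called.

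In complex V, Atp5d, the delta subunit of the rotor, was at 382 and 353, 110 and 170, and 318 and 484 CPM in eWAT macrophage-like cells. Its ob/ob effect was −1.63 ± 0.30 (edgeR, adjusted p = 0.00542) and its Rosi effect 1.80 ± 0.31 (adjusted p = 0.00299). In iWAT it was at 172 and 283, 57.1 and 59.6, and 220 and 310 CPM. The ob/ob-Veh libraries of both depots were below all others.

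Atp5g1, Atp5g2 and Atp5g3 encode the same mature c subunit of the rotor ring from 3 nuclear genes. Atp5g1 and Atp5g2 were called in all 4 macrophage-like comparisons and Atp5g3 in none. Atp5g1 (chr11:96068852-96075670, GRCm38, − strand) was at 373 and 272, 99.8 and 150, and 300.0 and 335 CPM in eWAT macrophage-like cells, with −1.60 ± 0.29 (edgeR, adjusted p = 0.00461) and 1.62 (adjusted p = 0.00337). In iWAT it was at 167 and 217, 39.4 and 56.9, and 221 and 261 CPM, with −2.20 ± 0.29 (adjusted p = 0.00623) and 2.56 ± 0.29 (adjusted p = 0.00543). Atp5g2 was at 540 and 458, 255 and 352, and 433 and 618 CPM in eWAT, with −0.95 ± 0.28 (adjusted p = 0.0306). Atp5g3 was at 281 and 200, 167 and 179, and 220 and 193 CPM in eWAT, and was not called (−0.71, adjusted p = 0.0538). Of the UMIs of the 3 genes, Atp5g1 held 10.5 to 30.5% in iWAT macrophage-like cells, with a median of 25%, and Atp5g3 held 18.0 to 44.9%, with a median of 29.9%. The differences between the 3 genes were not tested.

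Few mt- members were called. mt-Co1, the catalytic subunit of complex IV, was at 5892 and 6793 CPM in WT-Veh, 14493 and 13139 in ob/ob-Veh and 8644 and 5943 in ob/ob-Rosi in eWAT macrophage-like cells. It was the mt- member called there, 0.90 ± 0.28 for the ob/ob effect (edgeR, adjusted p = 0.0356), and both ob/ob-Veh libraries were above the other 4. In iWAT mt-Co1 was at 15252 and 7980, 29690 and 23566, and 9215 and 5275 CPM, and the Rosi effect was −1.67 ± 0.47 (adjusted p = 0.0411), while the ob/ob effect of 1.03 ± 0.46 was not called (adjusted p = 0.164). The call of mt-Co1 in eWAT was lost among cells under 10% mt- UMIs, and the call in iWAT was lost when cells were thinned to 700 UMIs. The eWAT call was also lost without WT-Veh 1, WT-Veh 2, ob/ob-Veh 1 or ob/ob-Veh 2, and 2 mt- members were called without either ob/ob-Rosi library. The iWAT call was lost without either ob/ob-Veh or either ob/ob-Rosi library, and 4 were called without either WT-Veh library. mt-Co2 gave 0.37 (adjusted p = 0.337) in eWAT, and mt-Nd4 0.65 ± 0.24 (adjusted p = 0.0607). In iWAT mt-Atp6 gave −0.98 (adjusted p = 0.253) and mt-Nd4 −1.12 (adjusted p = 0.0861) for the Rosi effect.

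mt- levels also depend on a filter. Cells with 25% or more mt- UMIs were left out. In eWAT this removed 0.136 and 1.55% of cells in WT-Veh, 4.23 and 12.7% in ob/ob-Veh and 1.01 and 1.84% in ob/ob-Rosi. The limit thus took the largest parts from ob/ob-Veh. It removed none in iWAT, where the deposited cells had already been filtered at that limit. Therefore shares of mt- UMIs are those of the cells below the limit.

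Since the mt- share of a class depends on this limit, the makeup of the mt- UMIs was also compared. The medians over 120 sums of class and library were 19.2% for mt-Co3, 18.2% for mt-Co1, 17.8% for mt-Atp6, 8.41% for mt-Cytb, 6.45% for mt-Nd1, 5.54% for mt-Nd4, 4.80% for mt-Nd2, 1.45% for mt-Nd3, 1.11% for mt-Nd5, 0.618% for mt-Nd4l, 0.239% for mt-Atp8 and 0.106% for mt-Nd6, with mt-Co2 at 15.2%. Tags from the 3′ end cannot firmly separate mt-Nd4l from mt-Nd4 or mt-Atp8 from mt-Atp6, which share transcripts. mt-Co1 made up 15.9 and 16.4% of mt- UMIs in WT-Veh, 22.3 and 20.7% in ob/ob-Veh and 14.8 and 14.7% in ob/ob-Rosi in eWAT macrophage-like cells. In macrophage-like cells of iWAT it made up 18.4 and 20.8%, 29.9 and 27.4%, and 18.6 and 21.4%. In eWAT APC-like cells it made up 15 and 15.9%, 19.1 and 18.9%, and 15 and 15%. Both ob/ob-Veh libraries were above both other groups for mt-Co1 in 19 of the 20 pairs of class and depot and in 12 of the 13 broad ones. mt-Co2 was below both groups in 13 of the 20, mt-Cytb in 7, and mt-Nd3 was above both in 7. These counts carry no p, since 2 libraries against 2 cannot reach 0.05.

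A second pattern in the makeup ran with the replicate number and not with the group. The share of mt-Atp8 was higher in library 1 than in library 2 in all 3 groups in 20 of 20 pairs of class and depot, and so was that of mt-Nd5 in 20, mt-Nd4l in 19 and mt-Nd2 in 17. Among macrophage-like cells of eWAT mt-Atp8 was 0.630 and 0.0726% of mt- UMIs in WT-Veh 1 and 2, 0.323 and 0.0590% in ob/ob-Veh and 0.252 and 0.0351% in ob/ob-Rosi. mt-Co2, mt-Co3, mt-Nd1, mt-Nd4 and mt-Cytb showed this in 0 pairs. The reverse order, with library 2 higher, was not counted. A count of 0 therefore does not show that a gene's share did not run with the replicate number. The study's methods state that the samples were handled and sequenced together, and the labels give no batch.

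**Figure D4:**
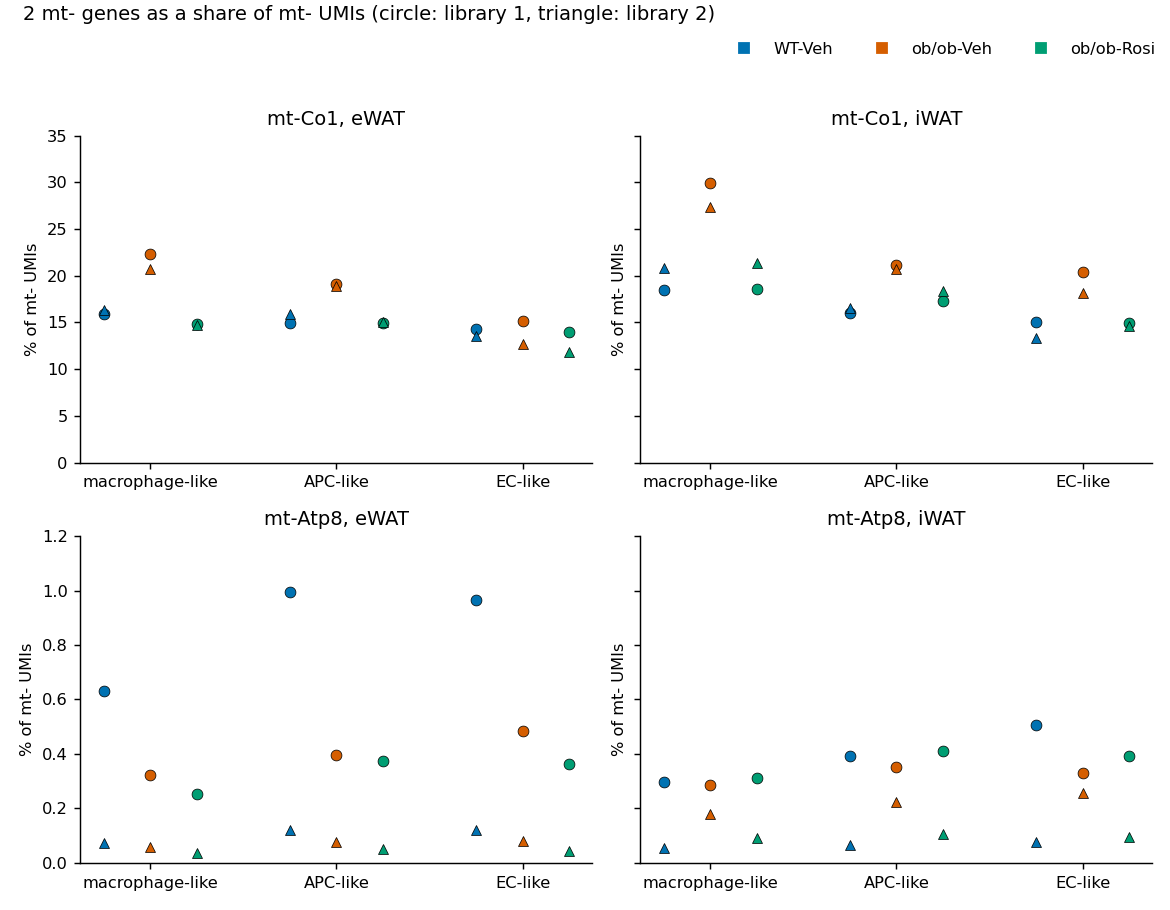
Share of all mt- UMIs (percent) held by mt-Co1 (top row) and mt-Atp8 (bottom row) in macrophage-like, APC-like and EC-like cells of eWAT and iWAT, with 1 point per library coloured by labelled group (circles for library 1, triangles for library 2). mt-Co1 is highest in the ob/ob-Veh libraries except in EC-like cells of eWAT, whereas mt-Atp8 is higher in library 1 than in library 2 of each group.

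In APC-like cells few members were called by edgeR. In eWAT, 1 of 80 nuclear members, Ndufa4l2, was lower in ob/ob-Veh, against 4.38% of all genes called lower and 2.87% called higher, and 3, Ndufa4l2, Cox4i2 and Cox5a, were higher in ob/ob-Rosi, against 4.69%. Their medians were −0.35 and 0.36, and 7 and 17 members passed an unadjusted p under 0.05, while DESeq2 called 2 and 7. In iWAT, 0 of 81 were called in the ob/ob effect by edgeR, against 0.25% of all genes called lower and 0.0958% called higher (44 at an unadjusted p under 0.05, and 15 called by DESeq2), and 2, Ndufa4l2 and Cox4i2, were higher in ob/ob-Rosi, against 0.39% (63 at an unadjusted p under 0.05, 40 called by DESeq2 and 44 with no filter on low counts). Their medians were −0.71 and 0.97. In eWAT both counts were below the share called among all genes, and in iWAT the Rosi count by edgeR was above it. The counts turned on single libraries. Those of the Rosi effect rose or fell in both depots with the library left out, and the ranges are given in the last section. The iWAT library labelled WT-Veh 1 held 391 APC-like cells. None of the 13 mt- members was called in APC-like cells of either depot by edgeR or DESeq2, and none passed an unadjusted p under 0.05. Their medians were 0.12 and 0.01 in eWAT and 0.12 and −0.38 in iWAT.

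The complexes of APC-like cells had medians of −0.35, −0.34, −0.34 and −0.37 for the nuclear members of I, III, IV and V in the ob/ob effect of eWAT and 0.06 for complex II. In iWAT they were −0.78, −0.69, −0.74 and −0.60, and −0.20 for complex II. Sdhb was at 76.7 and 83.2, 45.1 and 49.0, and 60.7 and 135 CPM in eWAT APC-like cells, a change of −0.83 that was not called (edgeR, adjusted p = 0.199). Cox5b was at 136 and 215, 67.1 and 90.0, and 180 and 274 CPM in iWAT APC-like cells, with a Rosi effect of 1.62 (adjusted p = 0.073). Ndufa13 was at 216 and 222, 135 and 119, and 300.0 and 304 CPM there, with a Rosi effect of 1.32 ± 0.25 (adjusted p = 0.0586). None of these 3 had an overlap of ob/ob-Veh with another group.

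Ndufa4l2, a paralogue of the complex IV subunit gene Ndufa4 that is known as a target of hypoxia-inducible factor and lowers chain activity, had the largest change of the members in APC-like cells (chr10:127514967-127517154, GRCm38, + strand). In eWAT APC-like cells it was at 59.3 and 106 CPM in WT-Veh, 3.27 and 9.58 in ob/ob-Veh and 92.0 and 255 in ob/ob-Rosi. The ob/ob effect was −3.79 ± 0.57 (edgeR, adjusted p = 0.00381) and rosiglitazone gave 4.87 ± 0.59 (adjusted p = 0.00123). In iWAT APC-like cells it was at 13.2 and 29.5, 0.399 and 2.49, and 75.3 and 112 CPM, with a Rosi effect of 6.21 ± 0.75 (adjusted p = 0.0228) and an ob/ob effect of −4.16 ± 0.71 that was not called (adjusted p = 0.0712). Both ob/ob-Veh libraries were below all the others in each depot.

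Within the APC-like cells, Ndufa4l2 was higher in preadipocyte-like cells, at 91.4 and 140, 5.64 and 15.1, and 134 and 285 CPM in eWAT, where the ob/ob effect was −3.61 ± 0.46 (edgeR, adjusted p = 0.000809) and rosiglitazone gave 4.46 ± 0.47 (adjusted p = 0.000257). In progenitor-like cells of eWAT it was at 13.5 and 20.9, 1.71 and 3.59, and 16.2 and 52.2 CPM. In EC-like cells of eWAT it was at 47.4 and 99.7, 44.3 and 87.8, and 43.4 and 161 CPM, with overlap of all groups and a change of −0.27 (adjusted p = 0.806). The difference between APC-like and EC-like cells in the effect on Ndufa4l2 was not tested. Of the ob/ob-Veh preadipocyte-like cells of eWAT, 99.3% lay in 2 clusters that held 4 cells of WT-Veh and 3 of ob/ob-Rosi. Ndufa4l2 was among the 10 top genes of the other preadipocyte-like clusters there, so group and cluster cannot be told apart.

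Ndufa4l2 was also called in macrophage-like cells of eWAT, at 3.26 and 4.89, 0.495 and 0.939, and 5.15 and 10.2 CPM, levels far below those of APC-like cells of the same libraries and in the same order. APC markers took 0.235 and 0.20%, 0.318 and 0.375%, and 0.187 and 0.202% of UMIs in those macrophage-like cells. The part of free RNA or doublets in the macrophage-like value was not tested. The mural markers, from pericytes that are known to express Ndufa4l2, took 0.0567 and 0.0258%, 0.0119 and 0.0162%, and 0.0375 and 0.0448% of UMIs in eWAT preadipocyte-like cells, also lowest in ob/ob-Veh. In iWAT preadipocyte-like cells they took 0.00486 and 0.00435%, 0.00185 and 0.00291%, and 0.00734 and 0.00868%. Their part in the Ndufa4l2 values was not tested.

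**Figure D5:**
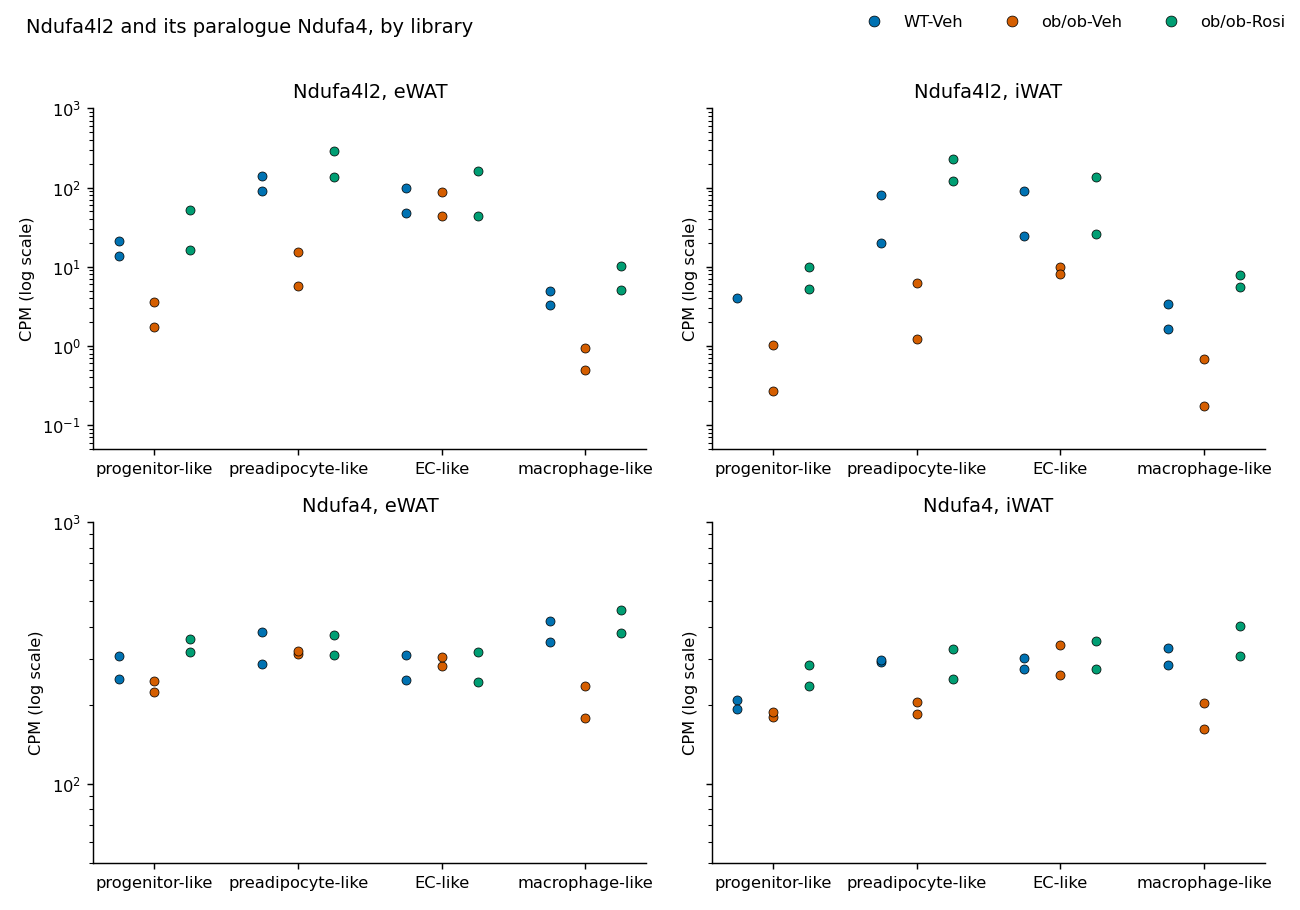
Ndufa4l2 and Ndufa4 (CPM, log axis) per library in progenitor-like, preadipocyte-like, EC-like and macrophage-like cells of eWAT and iWAT, coloured by labelled group. Ndufa4l2 is lowest in ob/ob-Veh among the points drawn in all of these but EC-like cells of eWAT, and the iWAT library labelled WT-Veh 1, with 0 Ndufa4l2 UMIs in progenitor-like cells, is not drawn on the log axis.

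Ndufa4 itself was at 318 and 267, 275 and 279, and 323 and 312 CPM in eWAT APC-like cells and was not called (−0.15, edgeR, adjusted p = 0.798). In macrophage-like cells of eWAT Ndufa4 was at 419 and 349, 178 and 237, and 461 and 377 CPM, with −1.12 ± 0.25 (adjusted p = 0.0104) and 1.28 ± 0.25 (adjusted p = 0.00536). Of the UMIs of both genes, Ndufa4l2 held 1.17 to 45.0% in eWAT APC-like cells, with a median of 19.0%, and 0.277 to 2.65% in eWAT macrophage-like cells, with a median of 0.938%.

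Cox4i2, the form of the Cox4 subunit known to respond to low oxygen and to be used by pericytes and lung, was rare, with 8 and 25 UMIs in WT-Veh, 7 and 23 in ob/ob-Veh and 27 and 105 in ob/ob-Rosi in eWAT APC-like cells. These are 1.23 and 2.98, 0.266 and 1.34, and 3.54 and 7.96 CPM, and the Rosi effect was 3.02 ± 0.69 (edgeR, adjusted p = 0.0241). In iWAT APC-like cells it had 1 and 14, 0 and 2, and 46 and 102 UMIs. The Rosi effect was called there (edgeR, adjusted p = 0.0483), with a size that the 2 UMIs of ob/ob-Veh do not fix. Of 8 mural markers, 4 were higher and 1 lower in the Rosi effect of eWAT APC-like cells, with a median of 2.23. All genes there were called higher in 4.69% and lower in 3.59%. In iWAT APC-like cells no mural marker was called (6 higher at an unadjusted p under 0.05), with a median of 1.95. Their part in the Cox4i2 values was not tested. In EC-like cells of eWAT Cox4i2 was at 5.51 and 27.9, 23.5 and 39.3, and 13.1 and 73.6 CPM, with overlap of all groups. Cox5a, which pairs with Cox5b around the catalytic core, was at 175 and 188, 102 and 112, and 177 and 280 CPM in eWAT APC-like cells, with a Rosi effect of 1.15 ± 0.29 (adjusted p = 0.0364).

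Tissue forms of other complex IV subunits were measured at low levels. Cox8b, a form known from muscle and brown fat, was at 32.9 and 33.9, 7.64 and 10.3, and 18.3 and 15.3 CPM in iWAT preadipocyte-like cells, with an ob/ob effect of −1.91 ± 0.32 (edgeR, adjusted p = 0.0353), and held 2.67 to 8.18% of the UMIs of its family there. Adipocyte markers took 0.0621 and 0.0429%, 0.0126 and 0.0155%, and 0.00774 and 0.00824% of UMIs of those cells, and their part in the Cox8b value was not tested. Cox6b2, known from testis, had a median of 61.0 CPM in mesothelial-like cells of eWAT, 44.3 to 90.6 over the 6 libraries, and made up 12.1 to 19.9% of the UMIs of Cox6b1 and Cox6b2 there. Its medians in the other classes were 0 to 14.7 CPM. Cox6a2, known from heart and muscle, was at 4.94 and 5.37, 0.619 and 1.78, and 4.46 and 4.83 CPM in eWAT macrophage-like cells, with −2.28 ± 0.44 (adjusted p = 0.00601) and 2.17 ± 0.44 (adjusted p = 0.00591).

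Of the parts of the macrophage-like class, PVM-like cells kept the order of the whole, with fewer calls in both depots. In eWAT, 3 of 80 nuclear members were lower in ob/ob-Veh, against 1.79% of all genes called lower, and 7 were higher in ob/ob-Rosi, against 3.35% called higher, with medians of −0.70 and 0.73. In iWAT PVM-like cells 10 of 81 were lower in ob/ob-Veh, against 1.66%, and 52 were higher in ob/ob-Rosi, against 5.6%, with medians of −1.02 and 1.39. Ndufa11 was called in all 4 of these comparisons, at 113 and 121, 48.0 and 67.5, and 119 and 146 CPM in eWAT, with −1.13 ± 0.25 (edgeR, adjusted p = 0.0494) and 1.34 ± 0.26 (adjusted p = 0.0259). In iWAT PVM-like cells Ndufa11 was at 71.3 and 99.8, 39.1 and 37.2, and 101 and 146 CPM. Nuclear members took 1.54 and 1.57%, 0.901 and 1.23%, and 1.48 and 1.71% of UMIs of eWAT PVM-like cells, and 1.01 and 1.43%, 0.618 and 0.747%, and 1.36 and 1.70% in iWAT, and the ob/ob-Veh libraries did not overlap the others. Leaving out the LAM-like cells did not give groups of the same clusters: 96.7% of the ob/ob-Veh PVM-like cells of eWAT lay in 1 cluster that held 0.209% of those of WT-Veh and 0.434% of those of ob/ob-Rosi, and in iWAT 99.3% lay in 1 that held 0.0259 and 0.131%. The counts turned on single libraries. In eWAT that of the ob/ob effect was 0 without either WT-Veh or either ob/ob-Veh library, 23 without ob/ob-Rosi 1 and 30 without ob/ob-Rosi 2, and that of the Rosi effect was 37 without ob/ob-Rosi 1 and 1 without any other library. In iWAT the ob/ob count was 56 without WT-Veh 1, 3 without WT-Veh 2, 0 without either ob/ob-Veh library and 6 and 5 without ob/ob-Rosi 1 and 2, and the Rosi count was 0 without either ob/ob-Veh library or ob/ob-Rosi 2.

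In preadipocyte-like cells of eWAT, mt- members were called in both effects, but not once the unnamed APC-like cells were counted as preadipocyte-like, the part their markers scored highest for. Of the 13, 4 (mt-Co1, mt-Co3, mt-Nd3 and mt-Nd4) were higher in ob/ob-Veh, against 4.53% of all genes called higher, and 2 of 80 nuclear members, Ndufa4l2 and Cox5a, were lower, against 5.95% called lower. In the Rosi effect 3 mt- members, mt-Co1, mt-Nd2 and mt-Nd3, were lower, against 5.88% of all genes, and 8 nuclear members higher, against 7.22%. mt-Co1 was at 3422 and 3851, 7200 and 8885, and 4310 and 4262 CPM, with 1.04 ± 0.21 (edgeR, adjusted p = 0.00974) and −0.82 ± 0.21 (adjusted p = 0.0257). mt-Nd3 was at 339 and 341, 668 and 848, and 421 and 294 CPM, with 1.05 ± 0.26 (adjusted p = 0.0281) and −0.99 ± 0.26 (adjusted p = 0.0312). mt-Co3 was at 2821 and 4486, 6457 and 8271, and 5170 and 5331 CPM, with 0.92 ± 0.23 (adjusted p = 0.0315). For these 3 genes both ob/ob-Veh libraries were above the other 4. The medians of the nuclear and mt- members in the ob/ob effect were −0.44 and 0.70. With the unnamed cells, an alternative chosen after seeing the data, 0 mt- members were called in either effect (0 at an unadjusted p under 0.05 too), their medians were −0.0025 and 0.067, and 1 and 3 nuclear members were called. The mt- members took 2.13 and 2.42% of UMIs of preadipocyte-like cells in the WT-Veh libraries but 4.11 and 3.64% of all APC-like cells there, against 3.79 and 4.53%, and 3.99 and 5.40%, in ob/ob-Veh. Within the part, 99.3% of the ob/ob-Veh cells lay in 2 clusters that held 4 cells of WT-Veh and 3 of ob/ob-Rosi, and the part of cell makeup was not tested. Without either WT-Veh library 1 mt- member was called in the ob/ob effect and 0 were without either ob/ob-Veh library, while 7 and 6 were called without ob/ob-Rosi 1 and 2. In the Rosi effect 0 were called without either ob/ob-Veh library or ob/ob-Rosi 2. The nuclear counts were 1 in the ob/ob effect without any 1 of these WT-Veh or ob/ob-Veh libraries and 4 and 7 without ob/ob-Rosi 1 and 2, and in the Rosi effect 2 without either ob/ob-Veh library, 15 without ob/ob-Rosi 1 and 1 without ob/ob-Rosi 2.

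In the other preadipocyte-like and progenitor-like cells, 2 of 80 nuclear members were lower in ob/ob-Veh and 13 higher in ob/ob-Rosi in iWAT preadipocyte-like cells, against 0.536% of all genes called lower and 1.12% called higher. In iWAT progenitor-like cells 0 of 79 were called in the ob/ob effect by edgeR, against 0.581% called lower (30 at an unadjusted p under 0.05, and 1 called by DESeq2), and 17 were higher in ob/ob-Rosi, against 1.85%. In eWAT progenitor-like cells Ndufa4l2 alone of the members was called, lower in ob/ob-Veh, against 2.16% of all genes, and higher in ob/ob-Rosi, against 2.2%. Here too single libraries set the counts. In iWAT preadipocyte-like cells the ob/ob count was 41 without WT-Veh 1, 0 without WT-Veh 2 or either ob/ob-Veh library and 3 without either ob/ob-Rosi library, and the Rosi count was 50 without either WT-Veh library, 0 without either ob/ob-Veh library and 1 without either ob/ob-Rosi library. In iWAT progenitor-like cells the ob/ob count was 29 without WT-Veh 1, and the Rosi count was 54 without either WT-Veh library, 0 without either ob/ob-Veh library or ob/ob-Rosi 2 and 7 without ob/ob-Rosi 1. Among progenitor-like cells of eWAT the ob/ob count was 0 without WT-Veh 2 and 2 without either ob/ob-Rosi library, and the Rosi count was 13 without ob/ob-Rosi 1 and 0 without ob/ob-Rosi 2.

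In EC-like cells, whose clusters differed between groups as given above, Atp5g1 was called in both depots. It was at 280 and 205, 89.9 and 119, and 175 and 209 CPM in eWAT, with −1.31 ± 0.27 (edgeR, adjusted p = 0.0267), and at 132 and 173, 39.2 and 63.5, and 158 and 178 CPM in iWAT, with −1.66 ± 0.32 (adjusted p = 0.0241) and 1.80 ± 0.32 (adjusted p = 0.0217). In eWAT EC-like cells it was the nuclear member called lower in ob/ob-Veh, of 78, against 2.23% of all genes. None was called in the Rosi effect by edgeR, against 1.94% called higher (15 at an unadjusted p under 0.05, and 2 called by DESeq2). Of the 13 mt- members, mt-Nd4 was higher in ob/ob-Veh there, 0.99 ± 0.24 (adjusted p = 0.0485), against 1.57% of all genes called higher. In iWAT EC-like cells 2 nuclear members, Atp5g1 and Ndufa7, were lower in ob/ob-Veh and 3, Atp5g1, Ndufa7 and Ndufa13, higher in ob/ob-Rosi, against 1.2% of all genes called lower and 1.35% called higher. In eWAT the ob/ob count of nuclear members was 0 without WT-Veh 1 or either ob/ob-Veh library and 5 without either ob/ob-Rosi library, the Rosi count was 9 without ob/ob-Rosi 1, and the mt- count in the ob/ob effect was 0 without any 1 of the WT-Veh and ob/ob-Veh libraries and 6 without either ob/ob-Rosi library. In iWAT the ob/ob count was 41 without WT-Veh 1, 0 without WT-Veh 2 or either ob/ob-Veh library and 9 without either ob/ob-Rosi library, and the Rosi count was 50 and 26 without WT-Veh 1 and 2, 0 without either ob/ob-Veh library, and 20 and 1 without ob/ob-Rosi 1 and 2.

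In T/NK-like cells of eWAT 8 of 76 nuclear members were lower in ob/ob-Veh, against 2.4% of all genes called lower, and 2 higher in ob/ob-Rosi, against 2.51% called higher. These eWAT cells also differed between groups in their clusters at Leiden resolution 2, as given above, and the part of this was not tested. Sdhb was called in both effects, at 115 and 126, 43.4 and 59.7, and 95.3 and 172 CPM, with −1.44 ± 0.34 (edgeR, adjusted p = 0.0294) and 1.59 ± 0.34 (adjusted p = 0.0196). The ob/ob count was 0 without any 1 of the WT-Veh and ob/ob-Veh libraries and 42 without either ob/ob-Rosi library, and the Rosi count was 0 and 1 without ob/ob-Veh 1 and 2, 34 without ob/ob-Rosi 1 and 1 without ob/ob-Rosi 2. In iWAT T/NK-like cells, of which ob/ob-Veh held 148 and 233, no gene of any kind was called by edgeR, a background of 0%. Of 76 nuclear members there, 55 and 62 passed an unadjusted p under 0.05 in the ob/ob and Rosi effects, DESeq2 called 22 and 41, and the medians were −1.46 and 1.78. By edgeR 52 and 54 were called in the ob/ob and Rosi effects without WT-Veh 1, and 7 and 50 without WT-Veh 2.

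Between ob/ob-Rosi and WT-Veh, no gene of any kind was called by edgeR in APC-like or macrophage-like cells of either depot, a background of 0%. At an unadjusted p under 0.05 the nuclear members numbered 0 and 5 in APC-like cells of eWAT and iWAT and 1 and 1 in macrophage-like cells, and DESeq2 called none of the members in these 4. The nuclear medians were 0.07 and 0.04 in eWAT APC-like and macrophage-like cells and 0.27 and 0.32 in iWAT. The mt- medians were 0.04 and 0.24 in eWAT and −0.33 and −0.66 in iWAT. A missed threshold with 2 libraries a group does not show that the groups were alike.

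Depots were compared in fits over all 12 libraries. In APC-like cells 1 nuclear member was called between iWAT and eWAT in WT-Veh, 2 in ob/ob-Veh and 1 in ob/ob-Rosi, against 5.16, 6.29 and 4.71% of all genes called in either direction, as for every depot share below. Cox8b was higher in iWAT in each group, by 3.17 ± 0.58, 3.13 and 3.55 ± 0.60 on the log2 scale, and Atp5g1 was lower in iWAT in ob/ob-Veh, −1.46 ± 0.28 (edgeR, adjusted p = 0.0102). In macrophage-like cells none was called in the 3 groups, against 3.39, 0.676 and 1.39%, with 31, 52 and 5 of 82 nuclear members at an unadjusted p under 0.05 and medians of −0.50, −0.72 and −0.21. DESeq2 was not run between depots. With the replicate number as a block, 2 and 14 nuclear members were called in APC-like cells of WT-Veh and ob/ob-Veh. In macrophage-like cells 2 and 17 were, with 1 mt- member in ob/ob-Veh. In preadipocyte-like cells of ob/ob-Veh 29 of 81 nuclear members were called, against 10.3%, of which 28 were lower in iWAT, with a median of −0.80. Among them were Atp5g1, −1.81 ± 0.27 (adjusted p = 0.0015), and Ndufs8, −1.36 ± 0.30 (adjusted p = 0.0133). The count was 2 without any 1 of the 4 ob/ob-Veh libraries and 19 without the eWAT library labelled ob/ob-Rosi 2, and went no higher than 39. The iWAT cells had been filtered by the authors before deposit and the eWAT cells had not, and the part of this in a depot difference was not tested. Depot counts are not given for preadipocyte-like cells of WT-Veh and ob/ob-Rosi. Nor are they given for EC-like, T/NK-like, B-like, PVM-like or progenitor-like cells. The large count is therefore not shown to be particular to preadipocyte-like cells of ob/ob-Veh. The depot's difference in the ob/ob effect and in the Rosi effect called no member in any of 8 classes by edgeR, against 0.29 and 0.205% of all genes in APC-like cells and 0.356 and 0% in macrophage-like cells. At an unadjusted p under 0.05, 1 and 14 of 82 nuclear members passed in APC-like cells and 0 and 19 in macrophage-like cells.

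Other genes of mitochondria and of the cell, were read as counts per list in macrophage-like cells, beside the shares of all genes given above: 16.3% called lower in ob/ob-Veh and 17.6% higher in ob/ob-Rosi in eWAT, and 7.92 and 11.6% in iWAT. Of 92 ribosomal protein genes tested, 54 were lower in ob/ob-Veh and 50 were higher and 2 lower in ob/ob-Rosi in eWAT, with medians of −0.91 and 0.83. In iWAT, 66 were lower and 1 higher in ob/ob-Veh, and 73 were higher in ob/ob-Rosi. Of 48 assembly factors, which build the complexes and are not part of them, 18 were lower and 21 higher in eWAT, with medians of −0.64 and 0.61, the largest changes being those of Ndufaf2, −1.54, and Ndufaf3, 1.41. In iWAT 7 of 47 were lower and 17 higher, led by Ndufaf3 at −1.42 and 1.73. Of 16 partners of the chain, such as cytochrome c, the ADP/ATP carriers and the outer membrane channels, 8 were lower and 8 higher in eWAT, with the adenine nucleotide carrier Slc25a4 at −2.35 and Vdac2 at 1.90. In iWAT 8 were lower and 10 higher, led by Cyc1 at −1.68 and by Atpif1, the inhibitor of complex V, at 2.00.

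The TCA cycle and mitochondrial transcription lists were read in the same way. Of 18 TCA cycle genes, 5 were lower and 4 higher in eWAT macrophage-like cells, with medians of −0.40 and 0.36, and 3 and 3 in iWAT. Suclg1, a subunit of succinyl-CoA ligase, led each, with −1.34 and 1.41 in eWAT and −1.63 and 1.74 in iWAT. Of 23 genes of mitochondrial transcription and biogenesis, 1 was higher, Polg2 at 1.26, and 2 lower, led by Slirp at −0.93, in the ob/ob effect in eWAT, with a median of −0.02, and 3 were lower in the Rosi effect, led by Polg2 at −1.53. In iWAT Slirp, which stabilises mitochondrial mRNAs, was lower in ob/ob-Veh, −0.81, and higher in ob/ob-Rosi, 1.43, and Nrf1, the factor of the NRF1 motif, was lower in ob/ob-Rosi, −0.95. Tfam, which packages and transcribes mitochondrial DNA, was not called: its changes in eWAT were −0.35 (edgeR, adjusted p = 0.241) and 0.28 (adjusted p = 0.338), and in iWAT −0.39 (adjusted p = 0.306) and 0.41 (adjusted p = 0.258).

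Dissociation genes moved the other way in eWAT macrophage-like cells, where 11 of 17 were higher in ob/ob-Veh, against 14.2% of all genes, and 13 lower in ob/ob-Rosi, against 15.9%, with medians of 1.32 and −1.51 and Hspa1b, a heat shock gene, at 3.24 and −2.91. Among macrophage-like cells of iWAT 1 was higher in ob/ob-Veh, against 6.34%, Hspa1b at 1.87, and in ob/ob-Rosi 1 was higher, Atf3 at 1.25, and 2 were lower, against 9.28%, with Hspa1b at −2.75, while the nuclear medians were those given above, −1.28 and 1.58. In APC-like cells of eWAT 5 were higher in ob/ob-Veh, against 2.87%, and 5 lower in ob/ob-Rosi, against 3.59%, and of iWAT none was called in the ob/ob effect by edgeR (4 with an unadjusted p under 0.05, of which 2 were higher) and 1 was lower in the Rosi effect, Hspa1a at −1.36, against 0.243%.

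In APC-like cells the same lists held few calls. Of all genes in eWAT, 4.38% were called lower and 2.87% higher in ob/ob-Veh, and 3.59% lower and 4.69% higher in ob/ob-Rosi. In iWAT these shares were 0.25 and 0.0958%, and 0.243 and 0.39%. Ribosomal protein genes had medians of −0.06 and 0.07 in eWAT, with 1 of 91 lower in ob/ob-Rosi, and of −0.59 and 0.79 in iWAT, where none of 92 was called by edgeR (14 at an unadjusted p under 0.05 in the ob/ob effect, 13 of them lower, and 36 in the Rosi effect, 34 of them higher). None of the assembly factors was called in either depot: their medians were −0.20 and 0.28 in eWAT, with 3 and 5 of 47 at an unadjusted p under 0.05, and −0.31 and 0.40 in iWAT, with 5 and 9 of 48. None of the 25 genes of mitochondrial transcription and biogenesis was called, with 0 and 0 at an unadjusted p under 0.05 in eWAT and 1 and 3 in iWAT. DESeq2 was not run for these lists. Ucp2, an uncoupling protein of macrophages and other cells, was the partner called in eWAT, at −1.75 and 1.35, and Idh3a, a TCA cycle dehydrogenase subunit, the TCA cycle gene called in iWAT, at −1.65.

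Markers of other cells also moved with the groups, read beside the shares of all genes given above. Among macrophage-like cells of eWAT all 6 mesothelial markers tested were higher in ob/ob-Veh and lower in ob/ob-Rosi, 3 APC and 3 adipocyte markers were higher in ob/ob-Veh, and 3 of the macrophage markers themselves were lower. In ob/ob-Rosi 5 adipocyte, 3 APC and 2 B markers were lower there, and 1 adipocyte, 1 APC, 2 mural, 1 endothelial, 1 T/NK and 4 macrophage markers higher. In the ob/ob effect 2 mural and 1 T/NK markers were also higher, and 2 mural, 1 T/NK and 1 endothelial lower. In macrophage-like cells of iWAT all 8 APC markers were higher in ob/ob-Veh, with a median of 2.82, and 6 lower in ob/ob-Rosi, with −1.72, and APC markers took 0.114 and 0.106%, 0.651 and 0.598%, and 0.181 and 0.208% of UMIs. In ob/ob-Rosi 3 endothelial, 2 mural, 3 macrophage, 1 T/NK and 1 adipocyte markers were higher there and 2 adipocyte markers lower, with medians of 1.31 for both the endothelial and the mural markers, and in ob/ob-Veh 1 B, 1 T/NK, 1 endothelial and 1 macrophage marker were lower. In eWAT APC-like cells all 8 macrophage markers were lower in ob/ob-Veh, with a median of −2.29, and higher in ob/ob-Rosi, with 2.04, and 4 of 8 mural and 2 of 8 endothelial markers were lower in ob/ob-Veh, while 4 mural and 2 endothelial markers were higher and 1 mural marker lower in ob/ob-Rosi. Of the APC markers themselves, 1 was higher and 3 were lower in ob/ob-Veh and 3 higher in ob/ob-Rosi. Of 5 mesothelial markers tested there, 3 were higher in ob/ob-Veh, with a median of 2.13, and 3 lower in ob/ob-Rosi, with −3.30. Of 5 adipocyte markers, 1 was higher and 1 lower in ob/ob-Veh, and 1 was lower in ob/ob-Rosi. Of the T/NK markers 1 was lower there and 1 higher in ob/ob-Rosi, and of the B markers 1 was lower in ob/ob-Rosi. In iWAT APC-like cells 1 adipocyte marker was lower in ob/ob-Veh and no other marker was called. The part of such carried-over RNA in the member results was not tested.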

How the data were processed

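Single-cell suspensions of the SVF of eWAT and iWAT were profiled with 10x Genomics 3′ v3.1 chemistry in 12 libraries, 2 mice per group and depot. Per the submitters' processing notes, reads were processed with bcl2fastq 2.19.1.403 and Cell Ranger 3.0.2 on mm10. The authors deposited raw UMI counts per gene and barcode, not normalised; the iWAT tables had been filtered by the authors (no cell at 22000 UMIs or 25% mt- UMIs or more), whereas the eWAT tables held all barcodes that Cell Ranger called as cells. Cell Ranger counts reads assigned to 1 gene, so members with close copies elsewhere in the genome are uncertain.

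Cells with 700 to 22000 UMIs, 200 to 6000 genes and under 25% mt- UMIs were kept. Each depot was clustered on 2000 variable genes, without members or other mt- genes (25 components, 20 neighbours, Leiden resolution 1; APC-like and macrophage-like cells again at 0.6 with 15 components), in scanpy 1.11.5, and clusters were named from at least 3 markers. Within APC-like and macrophage-like cells a cluster took the name of the part whose markers scored higher, without a minimum change. The naming rule was adjusted after the clusters were seen. Doublets were kept, and removal of Scrublet calls was an alternative. The automatic threshold marked 0% in eWAT WT-Veh 2, where the expected rate of 5.18% was removed instead, and 31.8% in iWAT WT-Veh 1. Barcodes shared between 2 libraries were 0.108 to 1.05% of the smaller one.

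UMIs were summed per library and class with at least 20 cells. Sums were tested with edgeR 4.0.16 (quasi-likelihood, TMM factors, filterByExpr; R 4.3.3) over 6 libraries per depot, with 3 residual degrees of freedom, and over 12 libraries between depots, with Benjamini-Hochberg adjustment over all genes tested. Calls needed an adjusted p up to 0.05 and a 1.1-fold change. CPM are UMIs scaled to 1e6 UMIs of the class sum, without the TMM factors that the log2 changes carry, so the 2 scales can differ. With 2 mice a group, each p-value sets a group difference against a spread pooled over the groups and moderated across genes. The fit was tested on simulated data.

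Members and gene lists (assembly factors, mitochondrial transcription and biogenesis, partners of the chain, TCA cycle, dissociation, ribosomal proteins and cell type markers) were chosen with earlier results of these data known. Named genes were the mt- members, the paralogue families, and within each complex the 2 most abundant members in APC-like cells, the member called most often and the 2 largest calls per direction at 20 CPM or more in APC-like and macrophage-like cells; of the other lists, the largest call in each direction. Sequences and their coordinates came from RefSeq promoters (GRCm38.p6). Alternatives were DESeq2 1.42.0, other normalisations and filters, no minimum change, thinning to 700 UMIs, other mt- limits, other clusterings, a replicate block, leaving out each library and, added after seeing the data, counting unnamed APC-like cells of eWAT as preadipocyte-like.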

Additional observations from a re-analysis of the deposited data

How the results depend on the processing

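The direction of the medians held under every alternative for the nuclear members, while the number of calls did not. The mt- median was above 0 in 352 of 367 fits of the ob/ob effect and in 31 of 367 of the Rosi effect. Counts of APC-like and macrophage-like cells and between depots that moved by over 1.5 times are given here, and the cause was not tested in any. For the counts of the other classes, 187 moved and 537 did not, and 151 moved and 233 did not when 1 library was left out. In eWAT APC-like cells, 1 nuclear member was called in the ob/ob effect, against 2 by DESeq2, 3 with no filter on low counts and 3 at Leiden resolution 2, and 1 mt- member was called, lower, with no filter. In the Rosi effect 3 were called, against 7 by DESeq2 and 7 with no filter. In iWAT APC-like cells, 0 were called in the ob/ob effect, against 15 by DESeq2, 18 with no filter and 2 in cells thinned to 700 UMIs, and 1 mt- member, higher, with no filter. In the Rosi effect 2 were called, against 40 by DESeq2, 44 with no filter, 19 in thinned cells and 7 among cells under 10% mt- UMIs, and between ob/ob-Rosi and WT-Veh 1 was called with no filter. For mt- members of eWAT macrophage-like cells, 1 was called in the ob/ob effect, against 2 by DESeq2, 2 with library size alone, 3 in thinned cells, 0 among cells under 10% mt- UMIs and 2 with no mt- limit. In the Rosi effect 0 were called, against 1 by DESeq2 and 1 with library size alone. In iWAT macrophage-like cells, 0 were called in the ob/ob effect, against 1 by DESeq2 and 1 with no filter, and 1 in the Rosi effect, against 4 by DESeq2, 6 with no filter and 0 in thinned cells. Between depots, 1 nuclear member was called in macrophage-like cells of ob/ob-Veh when library size and TMM factors left out mt- genes, against 0. Of the counts under these alternatives and the block, 279 stayed within 1.5 times and 41 did not.

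Leaving out each library in turn gave, for nuclear members, 1 to 3 (ob/ob effect) and 1 to 22 (Rosi effect) in eWAT APC-like cells, 10 to 66 and 16 to 61 in eWAT macrophage-like cells, 0 to 27 and 0 to 50 in iWAT APC-like cells, and 0 to 63 and 0 to 72 in iWAT macrophage-like cells. For mt- members it gave 0 to 2 in the Rosi effect of eWAT APC-like cells, 0 to 2 and 0 to 3 in eWAT macrophage-like cells, and 0 to 2 and 0 to 4 in iWAT macrophage-like cells. Between depots it gave 0 to 1, 0 to 3 and 0 to 1 in APC-like cells of WT-Veh, of ob/ob-Veh and of ob/ob-Rosi, 0 to 3 and 0 to 9 in macrophage-like cells of WT-Veh and ob/ob-Veh, and 2 to 39 in preadipocyte-like cells of ob/ob-Veh. Where a group was left with 1 library, that library was taken to vary like the others. The log2 ratio of mt- to nuclear UMIs kept its sign: 0.32 to 0.74 and −0.96 to −0.077 in eWAT APC-like cells, 1.28 to 1.68 and −1.46 to −0.83 in eWAT macrophage-like cells, 0.10 to 1.51 and −2.15 to −0.78 in iWAT APC-like cells, and 1.00 to 2.44 and −3.30 to −2.09 in iWAT macrophage-like cells.

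Fits that took the replicate number as a block (replicate block) gave other counts: 5 nuclear members were called in the Rosi effect of eWAT APC-like cells, 2 and 20 in the ob/ob and Rosi effects of iWAT APC-like cells, and 1 mt- member in the Rosi effect of eWAT macrophage-like cells and 2 and 9 in the ob/ob and Rosi effects of iWAT macrophage-like cells. Between depots the block gave 2 and 14 nuclear members in APC-like cells of WT-Veh and ob/ob-Veh, 2 and 17 with 1 mt- member in macrophage-like cells of the same groups, and 48 with 3 mt- members in preadipocyte-like cells of ob/ob-Veh. No source says that equal numbers share an animal or a day. The deviations of same-numbered libraries correlated at 0.22 to 0.31 in eWAT APC-like cells and 0.13 to 0.27 in eWAT macrophage-like cells. In iWAT WT-Veh and ob/ob-Rosi correlated at 0.55 in APC-like and 0.58 in macrophage-like cells. There ob/ob-Veh correlated with WT-Veh at −0.04 in both classes, and with ob/ob-Rosi at −0.02 in APC-like and 0.03 in macrophage-like cells. The part of this in the group differences was not tested. Depth limits rare members, since Cox4i2 and Cox8b had under 10 UMIs in several libraries.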
